A study of Homo sapiens with 18 samples.

Results

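NRF2 targets and antioxidant enzymes are a set of 39 genes of the cell's defence against oxidants and electrophiles: regulators of the transcription factor NRF2, glutathione and thioredoxin enzymes, enzymes of NADPH supply, aldo-keto reductases, export pumps and detoxifying enzymes. A gene entered when the array held a probe set annotated with its symbol alone, and the brightest such probe set stood for it. This left 37 of the 39 genes, out of 22392 genes measured. AKR1B1 and FTH1 had no such probe set and were left out.

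The cells were PNT1A, normal human prostate epithelium immortalised with SV40, a single cell line that stood in for every organ. In all, 18 arrays were made, 3 for each of 6 groups, and the labels place the flasks of 5 groups in a quasi-humanoid phantom. Cells in the prostate location (axis) received 70 Gy in consecutive fractions, and cells in the intestine, lung, thyroid and brain locations lay 15, 35, 52 and 74 cm from the axial plane, outside the beam. These 4 groups are called peripheral here. The methods ascribe their dose to scattered radiation, so they were not free of radiation. The control group is untreated in the sample labels and sham-irradiated in the methods. The methods have these flasks filled with PBS and left at room temperature without radiation, and do not say whether they were in the phantom. RNA was taken after replating and a further day of culture, so each value is an average over the cells of a flask, and fewer cells with a high level cannot be told apart from a lower level in every cell.

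NRF2, encoded by NFE2L2, is a basic leucine zipper factor that pairs with small MAF proteins and binds the antioxidant response element of its target genes. In resting cells KEAP1, an adaptor of a CUL3 ubiquitin ligase, holds NRF2 and marks it for degradation, and oxidants or electrophiles that react with cysteines of KEAP1 release it. The targets make and recycle glutathione and thioredoxin, supply the NADPH that both systems draw on, and neutralise and export reactive compounds. NRF2 activity is set largely by the stability of the protein, which these arrays do not measure.

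The core of the antioxidant response element, TGACNNNGC, was searched on both strands in windows of 300 bases, 250 before and 50 after each annotated start, in the RefSeq sequence of GRCh38.p14. A window was found for 27 of the 39 genes, and 9 of the 27 (33.3%) held a core in at least 1 window. Among 35116 windows of all genes 13.35% held a core, and among measured genes with a window 18.05% held one in at least 1 of their windows. A gene with several annotated starts has more windows in which a core can fall, and 8 of the 27 had several. The stretches of 60 bases below are examples from members that held a core. GCLM, TXNRD1 and MGST1 fell in axis cells. ME1 and EPHX1 passed an adjusted p under 0.05 but not a fold of 1.5, the 2 thresholds of a call, and GSTP1 passed neither. KEAP1, GPX2 and PGD also held a core and are not shown. For MGST1 and EPHX1 the core lay in only 1 of several windows. Capitals mark the core, read as TGACNNNGC on the gene's strand or as GCNNNGTCA where it lies on the other strand.
GCLM, chr1:93909431-93909490, minus strand: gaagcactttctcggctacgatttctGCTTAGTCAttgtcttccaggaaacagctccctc
TXNRD1, chr12:104215654-104215713, plus strand: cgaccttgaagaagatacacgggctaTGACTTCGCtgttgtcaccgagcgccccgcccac
TXNRD1, chr12:104286904-104286963, plus strand: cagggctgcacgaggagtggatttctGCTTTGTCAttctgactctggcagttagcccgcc
MGST1, chr12:16347105-16347164, plus strand: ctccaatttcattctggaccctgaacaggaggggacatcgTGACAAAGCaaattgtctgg
ME1, chr6:83431155-83431214, minus strand: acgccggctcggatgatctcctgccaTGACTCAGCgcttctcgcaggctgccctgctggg
EPHX1, chr1:225825250-225825309, plus strand: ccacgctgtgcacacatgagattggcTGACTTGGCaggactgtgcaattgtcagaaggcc
GSTP1, chr11:67583720-67583779, plus strand: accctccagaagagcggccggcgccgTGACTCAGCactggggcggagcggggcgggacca

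ME1 and GSTP1 hold the same 9 letters, TGACTCAGC, 137 and 66 bases before their starts. The core of GCLM starts 34 bases before its start. TXNRD1 held 3 cores over its windows. Of the members called in axis cells, 3 of the 6 with a window held a core, and of the other measured members 6 of 20 did (KEAP1, GPX2, GSTP1, PGD, ME1 and EPHX1). The called members NQO1, SRXN1 and TKT had a window without a core. For the called members AKR1B10, ABCC3, ALDH3A1, SLC7A11, ABCC1 and GSR no window was found. These matches describe letters in a window and are no measure of binding.

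The medians of the 18 arrays over all genes lay between 4.07 and 4.22 on the log2 scale, and arrays of one group correlated at 0.9918 or more. In control cells 6 of 8 epithelial markers lay above the mean of the control array medians, with means of 6.83 for KRT18 and 6.01 for KRT8, and KRT14 (3.61) and CDH1 (4.10) lay below it. Of 6 mesenchymal markers 5 lay above it. Of 5 prostate luminal markers only HOXB13 (4.52) lay above it, and KLK3 (3.96), KLK2, TMPRSS2 and ACP3 lay below, as did the immune and endothelial markers. In axis cells 2 of 8 epithelial markers (KRT5 and KRT19) and 4 of 6 mesenchymal markers were called lower. The mean log2 signal of the mesenchymal list was 6.14 to 6.26 on the axis arrays and 7.13 to 7.18 on the control arrays. That of the epithelial list was 4.74 to 4.90 and 5.20 to 5.26. The p53 targets CDKN1A and MDM2, read as a check of the irradiated label, averaged 9.11 to 9.25 on the axis arrays and 7.34 to 7.46 on the control arrays. The part of these shifts in the values below was not tested. One peripheral array stood apart for these genes: intestine replicate 3 was the lowest of its group for 31 of the 37 members, against 38.3% of all genes.

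In axis cells, 12 of the 37 members fell against control cells and none rose. These were AKR1B10, ABCC3, ALDH3A1, SLC7A11, TKT, SRXN1, ABCC1, TXNRD1, GCLM, GSR, NQO1 and MGST1, with falls of 1.53-fold (MGST1) to 3.46-fold (AKR1B10). A call required an adjusted p below 0.05 (limma, Benjamini-Hochberg over all genes) and a fold change above 1.5. The share of members called lower was 32.4%, against 2.6% of all genes called lower and 4.39% called higher. The median log2 fold change was -0.46 over the members and 0.01 over all genes. An unadjusted p under 0.05 was reached by 29 members (78.4%), against 28.7% of all genes. Each of the 12 lay lower on all 3 axis arrays than on any of the 15 arrays of the other groups, and 26 of the 37 members (70.3%) did so, against 7.51% of all genes. Members and genes above all 15 arrays made up 5.41% (2 members) and 11.7%. The members were chosen with earlier results of these data known, so these contrasts with all genes are no independent evidence. By role, the calls ranged from 0 of 3 regulators to 2 of 3 export pumps, as the plot of fold changes by role shows.

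**Figure D1:**
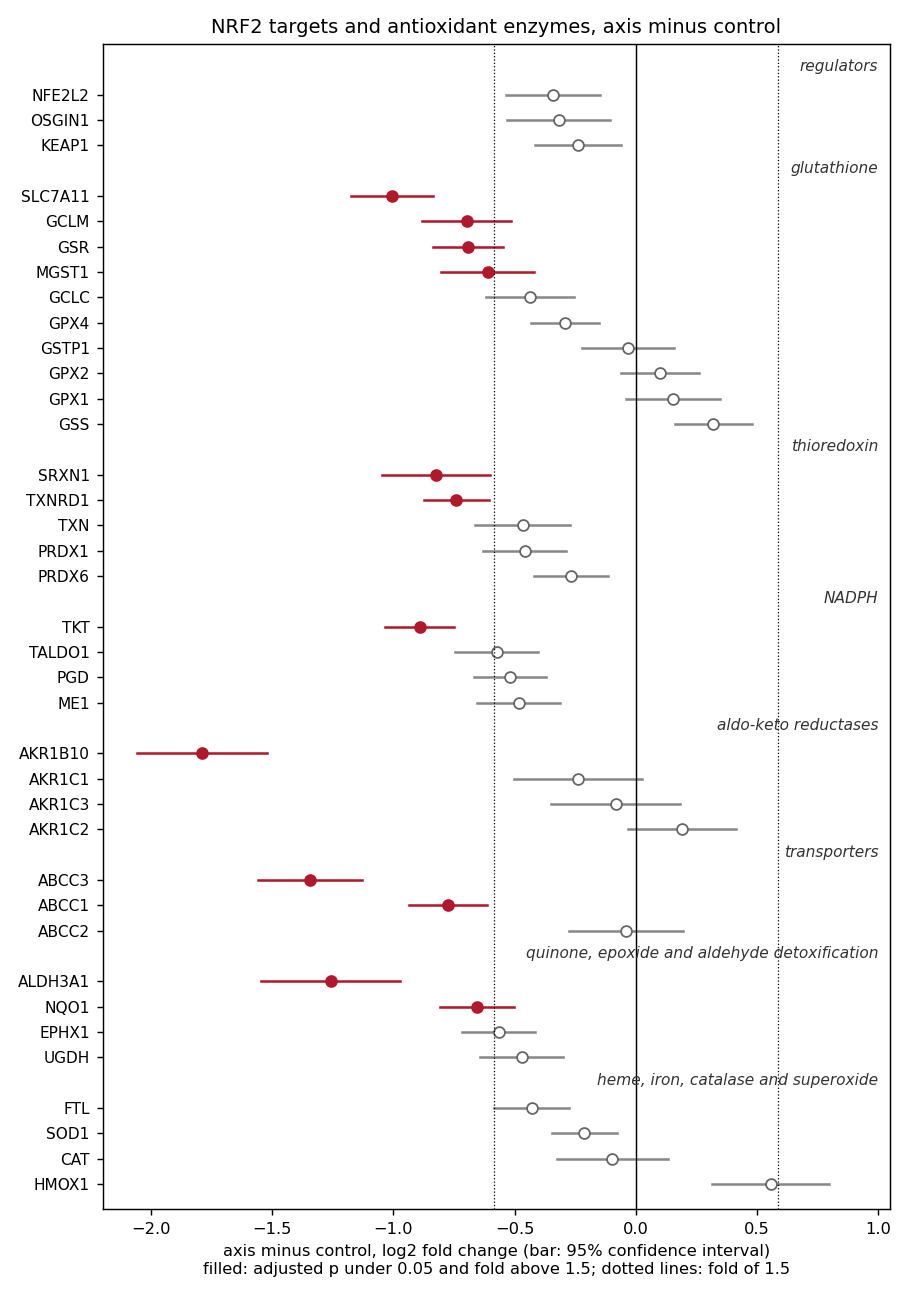
Log2 fold change of the 37 members, axis minus control, with the 95% confidence interval of the limma fit (3 arrays a group), sorted within roles. The 12 filled points, from AKR1B10 at -1.79 to MGST1 at -0.61, passed both thresholds and all lie on the lower side, while HMOX1 at 0.56 and GSS at 0.32 lie on the higher side without reaching a fold of 1.5.

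Among the regulators no member passed both thresholds. NFE2L2, the gene of NRF2 itself, read 7.32, 7.37 and 7.25 on the axis arrays, against 7.72, 7.59 and 7.63 on the control arrays. The 3 axis arrays lay below the other 15, by less than any called member (log2 fold change -0.34 ± 0.09 SE, adjusted p = 0.0114, 1.27-fold). KEAP1, the repressor of NRF2, read 6.84, 6.95 and 6.97 in axis cells, against 7.14, 7.11 and 7.22 in control cells. Its axis values lay below the controls but overlapped with the peripheral arrays, and the adjusted p was 0.0565 (limma). OSGIN1, an oxidative stress-induced growth inhibitor and NRF2 target, differed by -0.32 (adjusted p = 0.0309).

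In the glutathione group 4 of 10 members fell. SLC7A11, the cystine importer that feeds glutathione synthesis, read 9.57, 9.60 and 9.48 in axis cells, against 10.64, 10.52 and 10.49 in control cells. The arrays of the other 5 groups all lay between 10.40 and 10.65, leaving a gap of 0.80 log2 units to the axis. The fall (SE 0.08 log2 units, adjusted p = 2.49e-08) put SLC7A11 at 49.9% of its control level (95% confidence interval 44.3 to 56.1).

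Glutathione itself is made in 2 steps, by glutamate-cysteine ligase and glutathione synthetase. GCLM, the modifier subunit of the ligase, read 7.36, 7.08 and 7.05 in axis cells, against 7.85, 7.88 and 7.87 in control cells (-0.70 ± 0.09 SE, adjusted p = 7.54e-06, 1.62-fold). The controls lay close together while axis replicate 1 stood above the other axis arrays, with no overlap between the groups. GCLC, the catalytic subunit, averaged 5.70 ± 0.05 in axis cells and 6.13 ± 0.02 in control cells (SD, n = 3 each), a difference of -0.44 (adjusted p = 0.000914) that missed the fold threshold. GSS, the synthetase, went the other way: 7.53, 7.65 and 7.67 in axis cells, against 7.22, 7.30 and 7.37 in control cells (0.32, adjusted p = 0.00413, 1.25-fold), with the axis arrays above all 15 others. The difference between the ligase subunits and GSS was not tested.

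GSR, the reductase that regenerates glutathione from its disulfide with NADPH, read 8.59, 8.56 and 8.53 in axis cells, against 9.23, 9.25 and 9.27 in control cells. Both groups were tight, and the 12 peripheral arrays stayed with the controls (-0.69 ± 0.07 SE, adjusted p = 3.77e-07, 1.62-fold). MGST1, a membrane-bound glutathione transferase, read 3.32, 3.38 and 3.48 in axis cells, against 4.02, 3.97 and 4.02 in control cells. It was called (-0.61 ± 0.09 SE, adjusted p = 5.37e-05), but its mean signal over all arrays (3.93) lay below the array medians and it was the called member nearest to the fold threshold. Without axis replicate 1 it was no longer called (-0.57).

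No other glutathione member was called. GSTP1, a transferase that conjugates glutathione to electrophiles, read 8.87, 9.04 and 9.11 in axis cells, against 9.05, 9.06 and 8.99 in control cells. Its arrays overlapped (-0.03, adjusted p = 0.893), and the interval of the level ran from 85.7% to 112% of control. GPX4, which reduces lipid hydroperoxides in membranes, differed by -0.29 (adjusted p = 0.00345). GPX1 and GPX2, cytosolic glutathione peroxidases, differed by 0.15 and 0.10, with adjusted p of 0.307 and 0.457 (limma). GPX2 lay below the array medians.

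In the thioredoxin group 2 of 5 members fell, and the other 3 passed the adjusted p on the same side. TXNRD1, the cytosolic reductase that restores thioredoxin with NADPH, read 8.19, 8.21 and 8.10 in axis cells, against 8.92, 8.87 and 8.94 in control cells (-0.74 ± 0.06 SE, adjusted p = 6.3e-08, 1.67-fold). The other 15 arrays spanned only 8.80 to 8.95, all above the axis arrays. SRXN1, sulfiredoxin, which rescues over-oxidised peroxiredoxins, read 6.39, 6.74 and 6.63 in axis cells, against 7.39, 7.36 and 7.47 in control cells (-0.82 ± 0.11 SE, adjusted p = 1.06e-05, 1.77-fold). The dimmer probe set of SRXN1, not used for the test, averaged 3.96 in axis cells and 4.63 in control cells, so both probe sets were lower.

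TXN, thioredoxin itself, read 10.70, 10.57 and 10.52 in axis cells, against 10.96, 11.06 and 11.16 in control cells. The groups did not overlap, but the difference of -0.47 (adjusted p = 0.000952, 1.38-fold) stayed under the fold threshold. PRDX1 and PRDX6, peroxiredoxins that reduce hydrogen peroxide and lipid peroxides, differed by -0.46 and -0.27 (adjusted p = 0.000341 and 0.0115).

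All 4 NADPH genes passed the adjusted p on the lower side and 1 was called. TKT, transketolase of the non-oxidative pentose phosphate pathway, read 8.71, 8.78 and 8.75 in axis cells, against 9.59, 9.65 and 9.66 in control cells. Its arrays varied by less than 0.1 within each of these groups, and the other 15 arrays began 0.70 log2 units above the axis (-0.89 ± 0.07 SE, adjusted p = 1.38e-08, 1.85-fold). PGD, 6-phosphogluconate dehydrogenase, which makes NADPH in the oxidative branch, read 7.61, 7.67 and 7.71 in axis cells, against 8.11, 8.21 and 8.23 in control cells (-0.52, adjusted p = 2e-05, 1.43-fold).

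TALDO1, transaldolase, stood just outside the fold threshold at 1.49-fold (-0.57, adjusted p = 2.9e-05), beside MGST1 just inside it at 1.53-fold. ME1, the cytosolic malic enzyme, another source of NADPH, differed by -0.48 (adjusted p = 0.000199). The NADPH group therefore held a single call but a median log2 fold change of -0.55, lower than that of the glutathione group at -0.36. These medians are given as description, and no test compared them.

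AKR1B10, a reductase of aldehydes and retinal, was the member with the largest difference. It read 5.98, 6.14 and 6.27 in axis cells, against 7.91, 7.95 and 7.90 in control cells. No array outside the axis was below 7.37, a value that came from intestine replicate 3, and the gap to the highest axis array was 1.10 log2 units. The fold change of -1.79 ± 0.13 (SE, adjusted p = 5.6e-09) put AKR1B10 at 28.9% of control (95% confidence interval 24.0 to 34.9). AKR1B10 has a close copy, AKR1B15, whose RNA its probes may share.

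The 3 steroid-reducing AKR1C enzymes, which are close copies whose probes may share RNA, lay below the array medians in every group. AKR1C1, the brightest of them, read 3.11, 3.05 and 2.88 in axis cells, against 3.00, 3.64 and 3.11 in control cells, with overlap and an adjusted p of 0.235 (limma). AKR1C2 and AKR1C3 differed by 0.19 and -0.08 (adjusted p = 0.267 and 0.774). At these signals a change could have gone undetected.

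Of the export pumps 2 of 3 fell. ABCC3, which exports glucuronide and glutathione conjugates and bile salts, read 6.15, 6.02 and 6.11 in axis cells, against 7.32, 7.40 and 7.58 in control cells. The other 15 arrays began at 7.14, well above the axis (-1.34 ± 0.10 SE, adjusted p = 1.25e-08, 39.4% of control). ABCC1, the pump of glutathione conjugates and oxidised glutathione known as MRP1, read 7.34, 7.45 and 7.42 in axis cells, against 8.13, 8.22 and 8.17 in control cells (-0.77 ± 0.08 SE, adjusted p = 3.97e-07, 1.71-fold). ABCC2, the pump of the apical membrane, lay below the array medians and read 3.34, 3.20 and 3.44 in axis cells, against 3.57, 3.14 and 3.41 in control cells (-0.04, adjusted p = 0.889).

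The detoxifying enzymes of quinones, epoxides and aldehydes all passed the adjusted p on the lower side, and 2 of the 4 were called. NQO1, the quinone reductase often read as a gauge of NRF2 activity, was 10.26, 10.30 and 10.28 in axis cells, against 10.94, 10.92 and 10.94 in control cells. Replicates of both groups agreed within 0.05, and the fall was 1.58-fold (-0.66 ± 0.07 SE, adjusted p = 1.62e-06). NQO1 lies close to the fold threshold: after quantile normalisation of the arrays its fold change was -0.54, and after cyclic loess -0.56, both under a fold of 1.5.

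ALDH3A1, an aldehyde dehydrogenase, read 5.41, 5.47 and 5.67 in axis cells, against 6.75, 6.72 and 6.85 in control cells (-1.26 ± 0.14 SE, adjusted p = 1.24e-06, 41.8% of control). UGDH, which makes the UDP-glucuronate used in conjugation, read 8.46, 8.40 and 8.43 in axis cells, against 8.92, 8.84 and 8.95 in control cells (-0.47, adjusted p = 0.000259). EPHX1, microsomal epoxide hydrolase, was just outside the fold threshold at 1.48-fold (-0.57, adjusted p = 8.79e-06).

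In the last group none of 4 members was called. HMOX1, heme oxygenase, which degrades heme and is also a target of the repressor BACH1, read 6.04, 6.11 and 6.23 in axis cells, against 5.64, 5.66 and 5.40 in control cells. The axis arrays lay above all 15 others, and the difference of 0.56 ± 0.12 (SE, adjusted p = 0.00132) came to 1.47-fold, just under the threshold. HMOX1 was called higher without control replicate 1 (0.59), without control replicate 2 (0.60) and without axis replicate 1 (0.60). FTL, the ferritin light chain that stores iron, read 10.92, 10.78 and 10.93 in axis cells, against 11.25, 11.35 and 11.32 in control cells (-0.43, adjusted p = 0.000215). SOD1, the cytosolic superoxide dismutase, differed by -0.21 (adjusted p = 0.0229), and CAT, catalase, by -0.10 (adjusted p = 0.666).

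**Figure D2:**
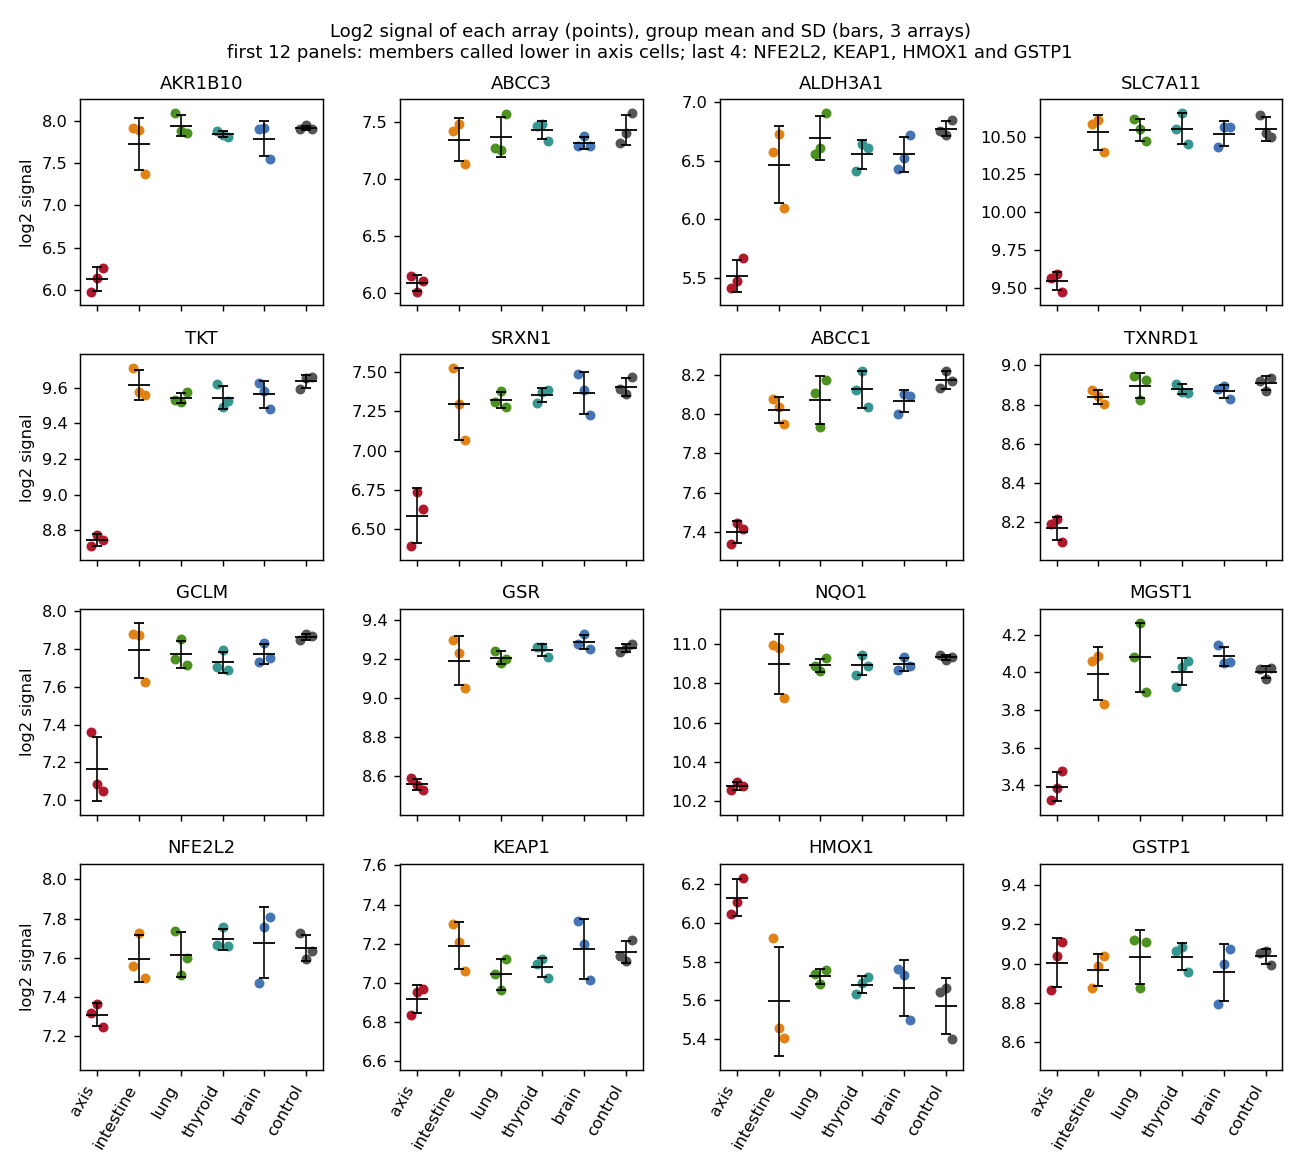
Log2 signal of every array (points) with the group mean and SD (bars, 3 arrays) for the 12 members called lower in axis cells and for NFE2L2, KEAP1, HMOX1 and GSTP1, by location. The axis points of the 12 called members lie apart below all other arrays, those of HMOX1 above them, and those of GSTP1 among them, and the panels have separate vertical scales.

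Against the 12 peripheral arrays the axis cells showed the same calls, with 12 of 37 members lower, the same 12 genes, and none higher. In this comparison 2.27% of all genes were called lower and 4.85% higher. Both comparisons share the axis arrays, so they are not independent of each other, but the peripheral arrays are not the control arrays. AKR1B10 was at 30.9% of its peripheral level and at 28.9% of its control level, and SLC7A11 at 50.4% and 49.9%. On the log2 scale TKT differed by -0.82 from the peripheral and by -0.89 from the control arrays, ABCC3 by -1.28 and -1.34, and ALDH3A1 by -1.05 and -1.26. HMOX1 and GSS differed from the peripheral arrays by 0.46 and 0.28 (adjusted p = 0.000612 and 0.00117). KEAP1 differed by -0.20 here with an adjusted p of 0.0294, still far from the fold threshold. Without intestine replicate 3 the same 12 members were called. Without axis replicate 2, and again without axis replicate 3, GCLM was not called against the peripheral arrays.

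Outside the beam no member was called at any location. Relative to control, 0% of all genes were called higher and 0% lower in intestine, lung, thyroid and brain cells and in the 4 groups together (limma), and limma's treat test against a fold of 1.5 also gave none. An unadjusted p under 0.05 was reached by 1 member (2.70%) each in intestine, lung and thyroid cells and by 0 in brain cells. Of all genes 723, 812, 901 and 801 reached it in the same order (3.23%, 3.63%, 4.02% and 3.58%). An F test over the 5 groups outside the axis likewise called 0% of genes, with 0 members and 679 genes (3.03%) at an unadjusted p under 0.05. The median SD within a group was 0.10 for the members and 0.13 for all genes. All 4 comparisons use the same 3 control arrays.

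In intestine cells, the nearest location to the beam at 15 cm, the smallest unadjusted p on the lower side belonged to ALDH3A1, which read 6.58, 6.73 and 6.09, against 6.75, 6.72 and 6.85 in control cells (-0.31 ± 0.14 SE). The lowest of these values was that of intestine replicate 3. On the higher side it belonged to ABCC2 (0.08 ± 0.11 SE). The median of the members was -0.06 and 32 of 37 lay below 0, against a median of -0.02 over all genes, of which 13240 of 22392 lay below 0. Without intestine replicate 3 the median of the members was 0.01. This array lay lowest of its group for all 12 members that fell in axis cells, and over the 37 members it stood a median of 0.17 log2 units below the mean of the other two intestine arrays, against 0.01 over all genes (differences of -0.17 and -0.01).

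In lung cells GPX4 read 8.32, 8.36 and 8.42, against 8.51, 8.59 and 8.58 in control cells (-0.19 ± 0.07 SE), without overlap. All 3 lung arrays lay below all control arrays for 3 of the 37 members and for 1339 of 22392 genes. On the higher side HMOX1 was first in the lung comparison (0.15 ± 0.12 SE). In thyroid cells GPX2, a dim probe set, read 3.58, 3.70 and 3.51, against 3.44, 3.46 and 3.36 in control cells (0.17 ± 0.08 SE), again without overlap. The thyroid arrays lay above all control arrays for 1 of the 37 members and for 831 of 22392 genes. ME1 was first on the lower side in the thyroid comparison (-0.17 ± 0.08 SE). In brain cells the smallest p belonged to GPX4 at -0.11 on the lower and GPX2 at 0.08 on the higher side. With the 4 locations together GPX4 differed from control by -0.12 ± 0.05 (SE) and GPX2 by 0.08 ± 0.06. After adjustment over all genes the smallest p of any member was above 0.99 in each of these comparisons (limma).

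In the order intestine, lung, thyroid and brain, 32, 28, 26 and 25 of the 37 members lay below 0 relative to control. Of 22392 genes 13240, 12782, 12475 and 12722 did. The member medians relative to control were -0.06 at 15 cm (intestine), -0.03 at 35 cm (lung), -0.05 at 52 cm (thyroid) and -0.04 at 74 cm (brain). After the arrays were brought to one distribution by quantile normalisation they were -0.05, -0.003, -0.01 and -0.03. Over all 4 comparisons the 95% confidence intervals of single members stayed within a fold of 0.66 to 1.32, so changes larger than these bounds were not seen for any member, while smaller ones could go undetected with 3 arrays a group.

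**Figure D3:**
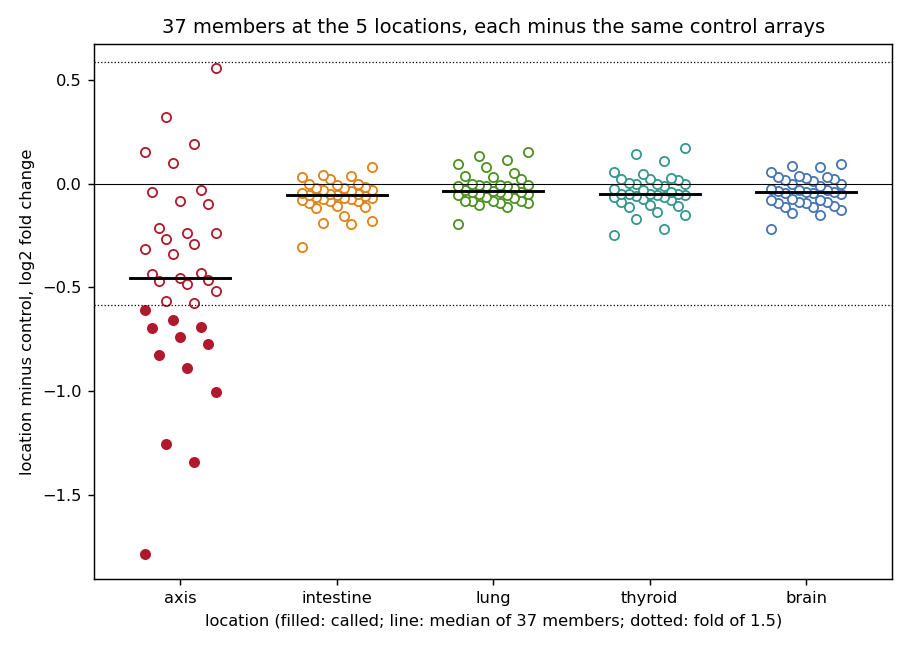
Log2 fold change of the 37 members at each of the 5 locations, each minus the same 3 control arrays, with the member median as a line and called members filled. The 4 peripheral locations hold all members between -0.31 (ALDH3A1, intestine) and 0.17 (GPX2, thyroid), while the axis spans -1.79 to 0.56.

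A wider view of the pathway came from 152 further genes in 7 lists, in which 13 genes rose and 11 fell in axis cells against control. These made up 8.55% and 7.24% of the 152 genes, against 4.39% and 2.60% of all genes. Against the peripheral arrays 14 rose (9.21%) and 8 fell (5.26%), against 4.85% and 2.27% of all genes. The lists are described against control unless stated otherwise. Among other NRF2 regulators 1 of 12 (8.33%) rose and none fell. This was MAFF, a small MAF partner of NRF2, which read 4.71, 4.51 and 4.46 in axis cells, against 3.68, 3.60 and 3.98 in control cells (0.81, adjusted p = 0.000176). SQSTM1, the autophagy receptor p62, which can sequester KEAP1, differed by -0.52 (adjusted p = 2.22e-05) without reaching the fold threshold.

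Among other glutathione genes 1 of 31 rose (3.23%, under the 4.39% of all genes) and 4 fell (12.9%, against 2.60%). CHAC1, which degrades glutathione, read 6.57, 6.76 and 7.01 in axis cells, against 5.02, 4.98 and 4.97 in control cells (1.79 ± 0.13 SE, adjusted p = 4.74e-09). ANPEP, an aminopeptidase of the cell surface that cleaves the cysteinyl-glycine left by glutathione breakdown, read 5.95, 5.92 and 5.67 in axis cells, against 7.17, 7.11 and 7.12 in control cells (-1.29, adjusted p = 3.25e-09). GSTM4 (-0.92), GPX8 (-0.68) and GSTM2 (-0.62) also fell, with the reservation that GSTM genes are close copies of each other.

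Among other NADPH genes 3 of 15 rose (20%, against 4.39% of all genes) and 1 fell (6.67%, against 2.60%). TIGAR, a p53 target that turns glucose toward the pentose phosphate pathway, read 8.75, 8.67 and 8.89 in axis cells, against 6.35, 5.86 and 6.28 in control cells (2.60 ± 0.13 SE, adjusted p = 4.78e-11). MTHFD2 and ALDH1L2, mitochondrial folate enzymes, rose by 0.77 each (adjusted p = 1.84e-08 and 1.22e-06), and IDH1, the cytosolic NADP-dependent isocitrate dehydrogenase, fell by 0.73 on the log2 scale (adjusted p = 2.85e-05). None of 18 other thioredoxin and peroxiredoxin genes was called against control (limma). In that comparison an unadjusted p under 0.05 was reached by 6 of the 18 (33.3%), against 28.7% of all genes. Against the peripheral arrays 1 of the 18 (5.56%) was called higher, against 4.85% of all genes.

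Among other detoxifying enzymes and transporters 6 of 37 fell (16.2%, against 2.60% of all genes) and none rose (against 4.39%). ABCC4, another export pump, read 5.76, 5.83 and 5.86 in axis cells, against 6.83, 6.80 and 6.84 in control cells (1.998-fold lower, adjusted p = 1.87e-07). TRIM16 and TRIM16L, close copies of each other, differed by -0.93 and -0.91 (adjusted p = 0.000731 and 0.000291), and the fatty aldehyde dehydrogenase ALDH3A2 by -0.81 (adjusted p = 5.16e-07). Among other antioxidant enzymes and sources of oxidants 1 of 29 (3.45%) rose, under the 4.39% of all genes. It was DUOX1, an oxidase that makes hydrogen peroxide (1.04, adjusted p = 7.73e-06).

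Of the list named p53 targets with antioxidant roles, 8 of 11 (72.7%) rose and none fell. Of all genes 4.39% rose and 2.60% fell. TP53INP1, a stress-induced p53 cofactor, rose by 2.64, TP53I3, a quinone oxidoreductase, by 2.51, and SESN2, a sestrin, read 7.34, 7.51 and 7.37 in axis cells, against 4.92, 4.80 and 4.99 in control cells (2.51, adjusted p = 2.07e-12). TIGAR belongs to this list as well. The list name is a label given here, and the action of its genes on oxidants was not measured. These genes were listed with earlier results of the same arrays known, and their direction is no independent evidence.

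**Figure D4:**
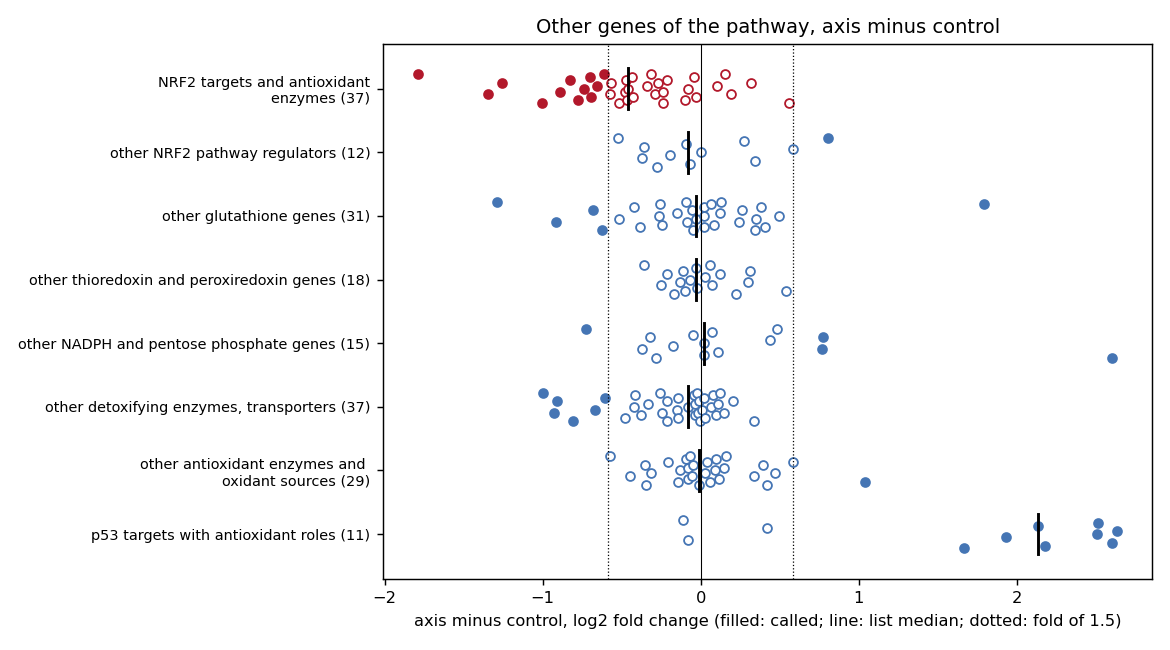
Log2 fold change, axis minus control, of the 37 members and of the genes of 7 further lists (number of genes in brackets), with the list median as a line and called genes filled. The members lie mostly on the lower side with a median of -0.46. Most other lists are centred near 0 with calls on one or both sides. Of the list named p53 targets with antioxidant roles, 8 of 11 genes lie at 1.67 or higher.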

How the data were processed

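Expression was measured on Affymetrix Human Gene 2.1 ST array strips, 18 arrays of PNT1A cells in 6 groups of 3. Background correction, normalisation and summary of probes were done by the authors with RMA (affy), and the deposited log2 values were taken as they are. The methods and the labels name different labelling kits. Array batches were not tested, since strips and scan days are not given in the sources used here. Of 53617 probe sets, 23866 had 1 symbol in the platform annotation, 1852 had several and 27899 were not listed with one. The brightest of several probe sets of a gene was used, without a filter on dim genes.

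The fit used lmFit and eBayes of limma 3.58.1 (R 4.3.3). All 18 arrays entered with 1 mean for each group, leaving 12 residual degrees of freedom, after a test on simulated data. Adjusted p-values are Benjamini-Hochberg over 22392 genes, called below 0.05 with a fold change above 1.5. SE is the standard error of the fit and SD that of 3 arrays. The labels number the replicates and the methods call them biological. With 3 arrays a group, precision is limited by their number. Alternatives covered the probe set per gene, a filter on dim genes, scaling, the fit, the fold threshold, a replicate block and each array left out.

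The members and lists were chosen with earlier results of these data known. Values per array are given for NFE2L2, KEAP1, NQO1, HMOX1, every called member and the brightest uncalled member of each role. Peripheral comparisons name the member with the smallest p in each direction, and each further list names at most 4 called genes by size of change. SQSTM1, GSTM2, the marker genes, the members near the fold threshold and the values per array of GSS were chosen after their values were seen. Promoter sequences are from RefSeq (GRCh38.p14), searched with Python 3.11.15.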

Additional observations from a re-analysis of the deposited data

How the results depend on the processing

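Across the settings run, no member's axis difference changed direction while called, and no gene was called in any of 94 refits of the peripheral comparisons. Without a fold threshold, 26 members were lower and 2 higher in axis cells against control, and 27 lower and 2 higher against the peripheral arrays. Of all genes 9.18% were lower and 11.2% higher against control, and 10.4% lower and 15.8% higher against the peripheral arrays. With limma's treat test against a fold of 1.5, 5 members were lower in each comparison (AKR1B10, ABCC3, ALDH3A1, SLC7A11 and TKT), since this test asks that the fold itself exceeds 1.5. Of all genes 0.84% were lower in this test against control and 0.98% against the peripheral arrays. Leaving out 1 array at a time gave 11 to 13 members lower and 0 to 1 higher against control (HMOX1 the one), and 11 to 12 lower and 0 higher against the peripheral arrays. In these refits 2.41% to 2.89% of all genes were lower and 4.31% to 4.72% higher against control. Against the peripheral arrays 2.07% to 2.39% were lower and 4.70% to 5.14% higher. Centring arrays on their medians gave 14 lower against control (TALDO1 and EPHX1 added), quantile normalisation 13 (NQO1 lost, TALDO1 and EPHX1 added) and cyclic loess 11 (NQO1 lost). The shares of all genes called lower were 2.89%, 2.87% and 2.55% in that order. These scalings moved the median of all genes by at most 0.046 log2 units. A filter to the brighter genes left 31 members, 11 of them lower, against 4.97% of the genes kept. Mean probe sets, array weights, a trended robust fit and a fit of only the groups compared each gave 12, against 2.51% to 2.60% of all genes.

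Same-numbered arrays did not deviate together: the correlation of their deviations from the group means had a median of -0.002 over 45 pairs, with 8 over 0.1, and 5 of 18 arrays correlated best with their own number. With the number as a replicate block, the same 12 members were lower and none higher against control, and 0 were called in the peripheral comparisons, so it changed no call of a member. Of all genes 2.60% were lower and 4.39% higher against control in that fit. The 6 members with a mean signal below the array medians (AKR1C1, AKR1C2, AKR1C3, ABCC2, GPX2 and MGST1) are the most limited by signal over background.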
